A study of Mus musculus with 7 samples.

Results

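The transforming growth factor-β (TGF-β) and bone morphogenetic protein (BMP) genes followed here are 10 rows of the UMI count matrix, chosen by symbol out of 27998 genes. They comprise 5 ligands (Tgfb1, Tgfb2, Tgfb3, Bmp2 and Bmp4), 3 receptors (Tgfbr1, Tgfbr2 and Tgfbr3), and the Smad7 and Id1 genes, which report on signaling. Each was read per mouse and cell type in dissociated mammary glands of nulliparous female mice of mixed background (FVB, 129 and C57BL/6J), all cycling and taken in diestrus. There were 3 young mice (Young A to C, 3 to 4 months old) and 4 aged mice (Aged A to D, 13 to 14 months old), with 1 unsorted single-cell library per mouse, no treatment and no engineered allele named. The mouse is the replicate, and the 13 cell types are those the authors assigned to the cells. The question is where in the gland each gene was expressed and whether that level differed between the ages.

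TGF-β ligands are secreted in a latent form and, once active, bind the type II receptor Tgfbr2, which recruits and phosphorylates the type I receptor Tgfbr1; Tgfbr3 (betaglycan) is a co-receptor that presents ligand, above all Tgfb2. BMP ligands use their own receptors and another set of SMAD proteins, and Id1, an inhibitor of basic helix-loop-helix factors, is a classical BMP target. Smad7 is induced by the pathway and blocks its receptors. In the mammary gland TGF-β is known as a restraint on ductal growth, and BMP signaling takes part in epithelial and vascular development.

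By GENCODE vM21 on GRCm38, which held all 10 symbols, Tgfb1 lies on chromosome 7 (25687002 to 25705077, plus strand) and Bmp4 on chromosome 14 (46383520 to 46390669, minus strand). Tgfb2 lies on chromosome 1 (186622792 to 186705989, minus) and Tgfbr2 on chromosome 9 (116084293 to 116175360, minus). The promoter windows of these 4 genes are shown out of the 5 genes for which a window was read. No window was read for Bmp2, Tgfbr3, Smad7 or Id1, whose differences with age in myoepithelial or vascular endothelial cells are described below as well. RefSeq windows (GRCm38.p6) of 300 bases, from 250 before to 50 after the start, were read for 5 of the 10 genes, Tgfbr1 being the other. Capitals mark the only searched motif that these 4 windows held, the E-box CACGTG.
Tgfb1, chr7:25686752-25687051, plus strand: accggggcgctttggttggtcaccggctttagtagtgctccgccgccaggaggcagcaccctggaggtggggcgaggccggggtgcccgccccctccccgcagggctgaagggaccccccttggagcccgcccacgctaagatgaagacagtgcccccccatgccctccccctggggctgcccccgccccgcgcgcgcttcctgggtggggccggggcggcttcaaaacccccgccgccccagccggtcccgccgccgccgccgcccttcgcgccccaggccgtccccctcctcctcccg
Tgfb2, chr1:186705940-186706239, minus strand: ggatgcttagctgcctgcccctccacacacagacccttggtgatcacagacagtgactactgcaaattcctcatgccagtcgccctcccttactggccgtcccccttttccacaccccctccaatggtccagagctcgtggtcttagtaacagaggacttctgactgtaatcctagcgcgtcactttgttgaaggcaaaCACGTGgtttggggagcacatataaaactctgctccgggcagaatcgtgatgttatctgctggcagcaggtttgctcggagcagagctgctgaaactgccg
Bmp4, chr14:46390620-46390919, minus strand: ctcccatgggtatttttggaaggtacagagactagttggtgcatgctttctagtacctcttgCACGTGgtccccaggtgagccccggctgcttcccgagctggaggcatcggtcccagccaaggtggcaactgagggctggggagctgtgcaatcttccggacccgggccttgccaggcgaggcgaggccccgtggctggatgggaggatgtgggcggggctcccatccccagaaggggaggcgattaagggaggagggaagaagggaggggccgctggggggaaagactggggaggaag
Tgfbr2, chr9:116175314-116175613, minus strand: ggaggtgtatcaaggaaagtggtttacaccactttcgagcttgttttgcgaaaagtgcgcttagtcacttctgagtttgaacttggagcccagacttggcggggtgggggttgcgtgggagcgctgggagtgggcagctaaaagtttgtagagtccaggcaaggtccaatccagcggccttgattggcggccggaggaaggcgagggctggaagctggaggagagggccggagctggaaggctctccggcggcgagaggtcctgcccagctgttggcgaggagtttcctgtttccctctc
The Tgfb2 and Bmp4 windows each held 1 CACGTG, which 7.15% of all 32851 promoter windows hold. The letters GGCGCC (11.9% of windows), GTCTAGAC (0.213%), CCAGACA (6.20%) and TGANTCA (7.81%), searched on both strands, were not in these 4 windows, and 1 GGCGCC was in the Tgfbr1 window at the annotated start of the gene. In the Tgfb1 window 231 of the 300 bases were G or C, against a median share of 52.7% over all windows. The sites searched do not overlap each other in these windows, and a match is a description only.

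The libraries held 6652599 to 16999625 UMIs and 1264 to 2865 cells per mouse. Median UMIs per cell were 4758.5 to 5253 in young and 5582 to 7109.5 in aged mice. The median mitochondrial share of a cell was 3.18% to 3.68% in young and 2.48% to 2.82% in aged mice. Neither overlapped between the ages. Of 13583 distinct cell barcodes, 101 occurred in more than 1 mouse. The files of young and aged mice differ in barcode format, and age therefore cannot be told apart from how the libraries were processed. Levels are CPM, the UMI counts summed over the cells of a type in a mouse and scaled to one common total, and are compared within a gene only. The 3 myoepithelial markers were at 9000 to 11744 CPM in myoepithelial cells, and the 5 vascular endothelial markers at 2031 to 3068 CPM in vascular endothelial cells. Cells named pericytes carried the 3 pericyte markers at 1017 to 1706 CPM together with the 5 endothelial ones at 842 to 2353 CPM.

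The ligands were spread over different compartments of the gland. Tgfb1, the ligand best known for restraint of immune cells, had its highest means in NK cells (370 ± 155 CPM, SD, n = 5 mice), dendritic cells (297 ± 126, n = 5) and lymphatic endothelial cells (275 ± 109, n = 5), types that gave 40, 226 and 28 cells over all mice. It was at 179 ± 21.4 CPM in vascular endothelial cells (n = 7) and lowest in Luminal-AV cells, the alveolar luminal type, at 20.04 ± 4.78 CPM. Tgfb2 was highest in fibroblasts (42.7 ± 14.7 CPM) and AV cells (35.6 ± 14.6) and stood at 4.32 ± 1.50 CPM in vascular endothelial cells. Tgfb3 was highest in AV cells, from 40.4 to 105.5 CPM in the 7 mice, and at 5.0 ± 3.1 CPM in vascular endothelial cells. Tgfb2 and Tgfb3 thus shared AV cells, where Tgfb1 was lowest.

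The BMP ligands had their highest means in stromal and vascular cells. Over all mice Bmp2 was highest in fibroblasts (79.7 ± 70.0 CPM, n = 7), followed by Ma macrophages (40.1 ± 18.2, n = 3, young mice only) and pericytes (30.1 ± 22.2, n = 7). Fibroblasts of young mice alone were at 34.7 ± 14.0 CPM, below the Ma macrophages of the same mice, and those of aged mice at 114 ± 78.1. Over all mice Bmp4 was highest in vascular endothelial cells (102 ± 68.7 CPM) and lymphatic endothelial cells (76.0 ± 88.4, n = 5, on 11 UMIs), and then in fibroblasts (38.0 ± 39.1). In young mice alone the types lay closer, at 30.5 ± 4.43 CPM in vascular endothelial cells, 25.5 ± 10.2 in pericytes and 23.6 ± 7.79 in fibroblasts. Lymphatic endothelial cells were at 0 in the 2 young mice with enough of them. A Bmp4 UMI was found in 25.2% of 1819 vascular endothelial cells and in 0.958% of 1670 myoepithelial cells, whose median depths were 4907 and 4431 UMIs. After thinning each cell to 2000 UMIs the shares were 13.1% and 0.359%. No Bmp4 UMI was found in 226 dendritic cells pooled over mice (median depth 4648 UMIs), which allows up to 1.33% of cells with a UMI by counting error alone and does not limit the share of cells that express it.

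Fibroblasts held the highest means of 2 of the 3 receptors. Tgfbr2 reached 213 ± 82.0 CPM in fibroblasts, 145 ± 49.4 in lymphatic endothelial cells and from 4.8 to 16.1 in AV cells. Tgfbr3 reached 144 ± 38.2 CPM in fibroblasts and 78.7 ± 62.8 in myoepithelial cells, against 1.4 ± 0.6 in Luminal-HS cells, the hormone-sensing luminal type. Tgfbr1 had its highest mean in Mb macrophages (147 ± 93.5 CPM, from 0 to 237 in the 7 mice) and lay at 31.1 to 49.4 CPM in fibroblasts, myoepithelial cells, pericytes, vascular endothelial cells and AV cells. Among the luminal cells the co-receptor Tgfbr3 was therefore low, at 1.4 CPM in HS and 6.9 ± 3.1 CPM in AV cells.

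Id1 had its highest means in vessel cells, of 1425 ± 779 CPM in lymphatic endothelial cells, 1391 ± 889 in vascular endothelial cells and 1120 ± 326 in cells named pericytes. The last of these also carried the 5 endothelial markers at 842 to 2353 CPM, whose part in their Id1 level was not tested. The next type, fibroblasts, was at 188 ± 143 CPM, and HS cells were lowest at 21.8 ± 12.0. Smad7 was more even, with means from 26.3 CPM in Ma macrophages to 177 in T and B cells. It was at 166 ± 61.8 CPM in myoepithelial cells and 152 ± 28.7 in vascular endothelial cells.

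**Figure D1:**
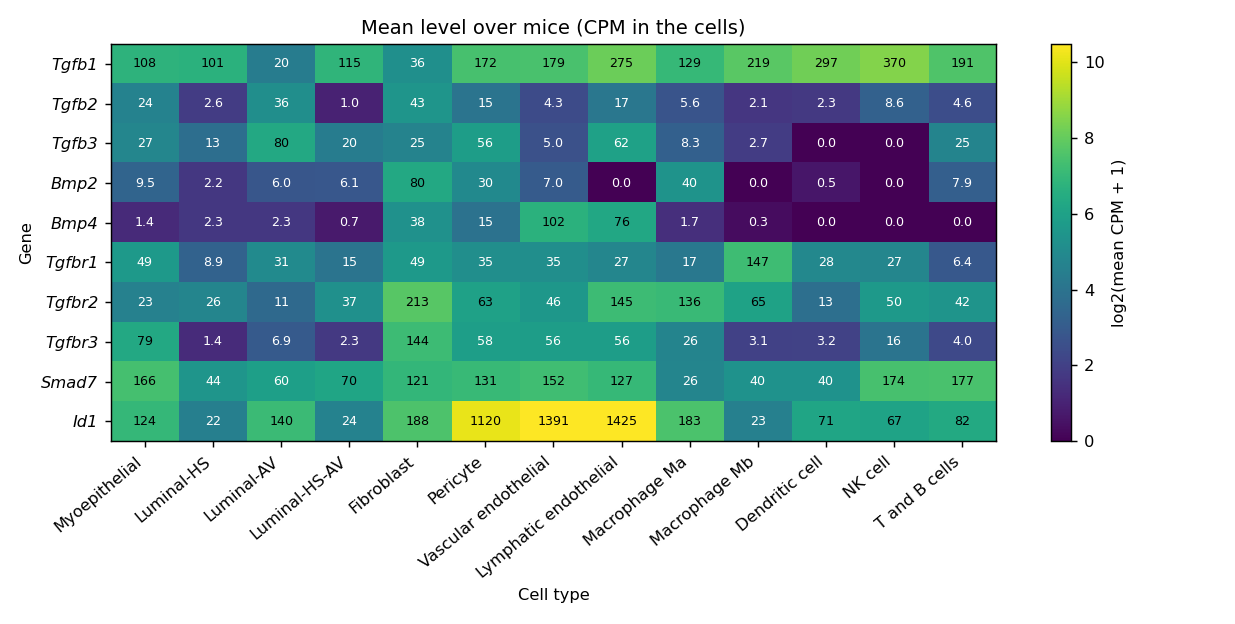
Mean CPM over mice of each gene (rows) in each cell type (columns), printed in the cells and colored on a log2(mean CPM + 1) scale; a mouse entered with at least 3 cells of the type. Id1 stands at 1120 to 1425 CPM in pericytes and endothelial cells, and Bmp4 at 102 CPM in vascular endothelial cells.

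None of the 10 genes separated its highest cell type from the next after Benjamini-Hochberg adjustment over the 10 genes (exact sign-flip permutation test on log2(CPM + 1), two-sided, paired within mouse), and 2 did at an unadjusted p under 0.05. Bmp2 was higher in fibroblasts than in pericytes in 7 of 7 mice (unadjusted exact p = 0.0156) and Tgfbr3 higher in fibroblasts than in myoepithelial cells in 6 of 7 mice (unadjusted exact p = 0.0313). The smallest p the test can give was 0.0156 with 7 mice and 0.0625 with 5 mice, and the pair of types was picked by its means. Only types with at least 3 cells in at least 5 mice entered, which left out Ma macrophages. For Id1, Smad7, Tgfb1 and Tgfb2 the leading types exchanged places between mice, with 2 to 4 mice higher in the leading type. The leading type also rested on small types for 4 genes. With types of at least 10 cells per mouse, Tgfb1 had its highest mean in vascular endothelial cells, Tgfbr1 in fibroblasts, Smad7 in myoepithelial cells and Id1 in vascular endothelial cells, each higher than the next type in 2 to 5 of 7 mice. At that minimum Bmp2, Bmp4 and Tgfbr2 each led the next type in 7 of 7 mice, Bmp4 in vascular endothelial cells over fibroblasts and Tgfbr2 in fibroblasts over pericytes (unadjusted exact p = 0.0156 each).

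Over the 56 samples of 8 cell types in 7 mice, the genes whose levels ran most like each member were found by Pearson's r on log2(CPM + 1), among genes with a mean of at least 20 CPM. Tgfbr3 ran most like the matrix genes Hspg2 (perlecan, r = 0.945), Serpinh1 (a collagen chaperone, 0.912) and Eln (elastin, 0.906). Id1 ran most like Epas1 (0.886), Sdpr (0.859) and Igfbp7 (0.854), and Bmp4 most like Slc10a6 (0.844), Gda (0.830) and Arhgap29 (0.804). Tgfb1 was nearest to Vasp (0.786), Cfl1 (0.755) and Dusp2 (0.739), and Tgfb3 to Crispld2 (0.767), Abhd14b (0.749) and Cyr61 (0.727). The nearest genes of the receptors and of the inhibitor were, for Tgfbr1, Cyth3 (0.792), Ptrhd1 (0.783) and Bach1 (0.773), for Tgfbr2, Epb41l2 (0.685), Ifi203 (0.671) and Ugdh (0.647), and for Smad7, Cebpz (0.794), Srsf2 (0.773) and Rbm22 (0.750). These are descriptions over samples that share mice and libraries. Tgfb2 and Bmp2 were below 20 CPM on average and were not compared.

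With age, the ligands Tgfb1, Tgfb2 and Bmp2 rose in myoepithelial cells, Bmp4 rose in vascular endothelial cells and Tgfb3 rose in pericytes, while Id1 fell in myoepithelial and vascular endothelial cells and Tgfbr2 or Tgfbr3 fell in 3 types. Counts were summed per mouse and type and fitted with the edgeR quasi-likelihood test after TMM scaling, in 8 cell types. Calls needed an adjusted p under 0.05 (Benjamini-Hochberg over all genes tested in the type) and a difference of at least 1.5-fold. Of 80 combinations of member and cell type, 51 passed the filter on low counts and 14 were called, 8 higher and 6 lower in aged mice, and in all 14 the TMM-scaled levels of the aged mice did not overlap those of the young (12 of 14 in plain CPM). Such groups without overlap made up 35.7% of all genes tested in myoepithelial cells, 36.8% in vascular endothelial cells, 24% in pericytes, 22.3% in AV cells and 15.9% in fibroblasts. The 14 were picked by their calls, so the like measure is all members tested. Of these, all aged mice lay above the young for 4 and below for 2 of 9 in myoepithelial cells. The counts were 2 and 3 of 8 in vascular endothelial cells, 1 and 2 of 6 in pericytes, 3 and 0 of 10 in AV cells and 1 and 0 of 10 in fibroblasts. TMM raised every log2 difference between the ages over plain CPM, by 0.36 in vascular endothelial cells, 0.34 in Mb macrophages, 0.27 in AV cells, 0.18 in pericytes, 0.12 in HS cells and fibroblasts, 0.11 in myoepithelial cells and 0.05 in T and B cells. The log2 fold changes below are relative to that scale, and the CPM are not.

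**Figure D2:**
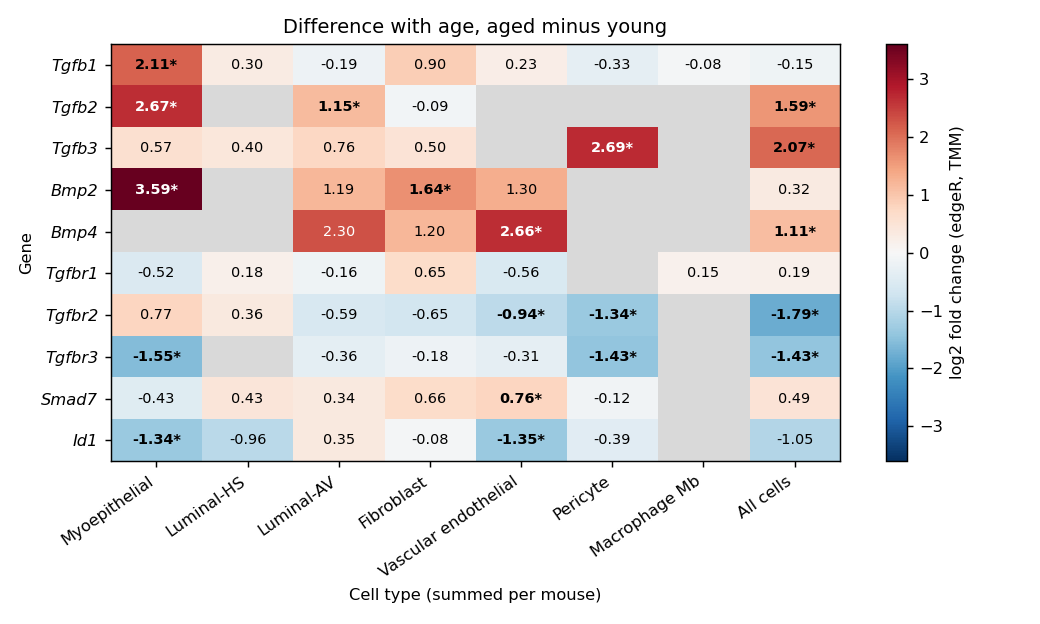
Fitted log2 fold change with age (aged minus young, edgeR with TMM) of each gene in each cell type and in all cells of the mouse, with called differences in bold with a star and gray where the gene did not pass the filter on low counts. Myoepithelial cells hold the largest value, 3.59 for Bmp2, and T and B cells are not drawn since no member passed there.

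In myoepithelial cells, the contractile basal layer of the ducts, 3 of 9 members tested rose and 2 fell. Over all 6740 genes tested, 12.8% were called higher and 14.8% lower, and with plain library sizes 654 rose and 1151 fell in place of 863 and 997. Tgfb1 was at 35.9, 39.3 and 45.4 CPM in the young mice and at 221, 137, 112 and 163 CPM in Aged A to D. Every aged mouse lay above 112 CPM and every young one below 46, a log2 fold change of 2.11 ± 0.27 (SE; edgeR adjusted p = 5.58e-05). Tgfb2 stood at 3.8, 9.8 and 9.7 CPM in the young and at 42.3, 23.1, 36.9 and 44.5 CPM in the aged mice (log2 fold change 2.67 ± 0.47, edgeR adjusted p = 0.000621), again with every aged mouse above every young one.

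Bmp2 was nearly absent from young myoepithelial cells. It had 1, 0 and 1 UMIs in Young A to C and 21, 38, 8 and 31 UMIs in Aged A to D, or 0 to 3.2 CPM against 12.3 to 19.3. The ratio of the summed counts was 12.0, with an exact 95% interval of 3.24 to 101 for counting error alone, and the fitted log2 fold change was 3.59 ± 0.66 (edgeR adjusted p = 0.000839). The co-receptor Tgfbr3 fell, from 97.3, 206 and 87.6 CPM in young to 63.4, 34.1, 38.5 and 23.4 CPM in aged mice (log2 fold change -1.55 ± 0.31, edgeR adjusted p = 0.00145). Id1 fell from 185, 246 and 153 CPM to 79.9, 89.9, 76.9 and 36.5 CPM (-1.34 ± 0.25, edgeR adjusted p = 0.00102). In these basal cells 3 ligands were thus higher, and the co-receptor and the BMP target lower, in every aged mouse.

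Other members did not pass in myoepithelial cells. Tgfbr2 was at 4.9 to 25.5 CPM in the young and 25.1 to 34.0 in the aged mice (log2 fold change 0.77 ± 0.36, edgeR adjusted p = 0.118). Tgfbr1 stood at 46.3 to 87.6 and 27.4 to 49.6 CPM (-0.52 ± 0.27, edgeR adjusted p = 0.163). The 3 young mice gave 40 to 187 myoepithelial cells and the aged ones 125 to 662. The 4 fibroblast markers summed to 49 to 187 CPM in the young and 3 to 26 CPM in the aged mice in these cells, against 3571 to 8164 CPM in fibroblasts, with none of the 4 at 0; the 5 HS markers summed to 45 to 108 CPM in the young and 9 to 38 CPM in the aged mice, again with none at 0. The part of either list in the differences of these cells, such as the fall of Tgfbr3, which fibroblasts also carry, was not tested.

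In vascular endothelial cells 2 of 8 members tested rose and 2 fell, where 14.7% of the 7864 genes were called higher and 12.0% lower. With plain library sizes the split over all genes was 679 higher and 2347 lower in place of 1155 and 944. Bmp4 was at 34.98, 30.5 and 26.1 CPM in the young mice and at 178, 172, 143 and 128 CPM in Aged A to D. The lowest aged mouse stood well above the highest young one (log2 fold change 2.66 ± 0.18, edgeR adjusted p = 7.12e-07). A Bmp4 UMI was found in 5.42% ± 0.534 of cells thinned to 2000 UMIs in young and 21.2% ± 4.06 in aged mice (10.8% and 40.9% unthinned; exact permutation p = 0.0286, the smallest that 3 mice against 4 allow).

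Id1 moved the other way in the same cells. It was at 2739, 2220 and 1948 CPM in the young and at 559, 683, 885 and 701 CPM in the aged mice (log2 fold change -1.35 ± 0.16, edgeR adjusted p = 5.56e-05). The share of thinned cells with an Id1 UMI was 88.1% ± 3.44 in young and 51.7% ± 2.91 in aged mice (94.8% and 74.0% unthinned; exact permutation p = 0.0286). In HS cells of all mice together, where Id1 is lowest, the thinned share was 3.79% at a median depth of 7277 UMIs. The BMP ligand of these cells was therefore higher and the BMP target Id1 lower in every aged mouse.

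Tgfbr2 fell in vascular endothelial cells, from 72.4, 80.0 and 56.3 CPM to 17.0, 24.4, 41.9 and 30.5 CPM (-0.94 ± 0.25, edgeR adjusted p = 0.0112), and was not called without Young B (adjusted p = 0.0627). The inhibitor Smad7 was at 107, 116 and 165 CPM in the young and 158, 171, 182 and 168 CPM in the aged mice, so Aged A lay below Young C in plain CPM. Its log2 fold change was 0.76 ± 0.17 with TMM (edgeR adjusted p = 0.00479) and 0.40 with plain library sizes, where it was not called (adjusted p = 0.0633). Tgfbr1 stood at 40.8 to 57.7 CPM in the young and 20.3 to 26.7 CPM in the aged mice with no overlap, and was called lower only with plain library sizes among these scalings (-0.56 ± 0.21 with TMM, edgeR adjusted p = 0.0614; -0.93 without). Tgfbr3 stood at 66.0 to 80.6 CPM in the young and 32.1 to 62.5 CPM in the aged mice. It was not called with TMM (-0.31 ± 0.22, edgeR adjusted p = 0.323) and was called lower with plain library sizes (-0.68, edgeR adjusted p = 0.0228). In these cells the 4 fibroblast markers summed to 27 to 110 CPM in the young and 0.7 to 10.6 CPM in the aged mice, and the 10 immediate early genes to 19406 to 26505 and 14386 to 18339 CPM. The 3 pericyte markers summed to 98.6 to 346 CPM in the young and 5.6 to 66.8 CPM in the aged mice, the 3 myoepithelial markers to 9.8 to 36.4 and 62.4 to 175 CPM, and the 5 endothelial markers of the cells themselves to 2824 to 3068 and 2031 to 2437 CPM. Pericytes of young mice carry Tgfbr2 at 103 CPM and Id1 at 1372 CPM. None of the genes of these 5 lists was at 0, and their part in these differences was not tested.

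In pericytes, the mural cells of small vessels, 1 of 6 members tested rose and 2 fell, where 7.19% of the 2601 genes were called higher and 4.61% lower (118 and 226 genes with plain library sizes in place of 187 and 120). Tgfb3 was at 12.1, 11.3 and 22.9 CPM in young and at 109, 74.2, 50.9 and 111 CPM in aged mice (log2 fold change 2.69 ± 0.43, edgeR adjusted p = 0.00196), on 4 to 8 and 9 to 14 UMIs per mouse. Every aged mouse stood above every young one. Tgfbr2 was at 94.9, 76.5 and 137 CPM in the young and 16.8, 47.7, 33.9 and 34.3 CPM in the aged mice (-1.34 ± 0.35, edgeR adjusted p = 0.0239), on 2 to 9 UMIs in each aged mouse. Without Young A it was not called (adjusted p = 0.0697), nor without Young C (0.0795).

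Tgfbr3 was at 111, 96.3 and 68.6 CPM in young and 50.5, 15.9, 45.2 and 17.2 CPM in aged pericytes (-1.43 ± 0.38, edgeR adjusted p = 0.0255). That call was lost on leaving out Young A (adjusted p = 0.140), Young B (0.0799), Aged B (0.0884) or Aged D (0.0653). The vascular endothelial markers summed to 2096 to 2353 CPM in the young and 842 to 1501 CPM in the aged cells named pericytes, and the fibroblast markers to 255 to 330 and 23 to 93 CPM, with none of the 9 at 0. Their part in the lower Tgfbr2 and Tgfbr3 was not tested. The 6 AV markers summed to 361 to 680 CPM in the young and 577 to 2495 CPM in the aged pericytes, with none at 0, and 3 of the 4 tested were called higher. AV cells are the type with the highest mean of Tgfb3 (91.2 CPM in aged mice), and the part of these markers in the higher Tgfb3 of pericytes was not tested.

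In AV cells 1 of 10 members rose and none fell by edgeR (3 passed an unadjusted p under 0.05 and DESeq2 called 1, in either direction), where 2.90% of 11012 genes were called higher and 3.26% lower (188 and 851 genes with plain library sizes in place of 319 and 359). Tgfb2 was at 19.0, 21.6 and 30.2 CPM in the young and 55.1, 42.2, 53.0 and 28.2 CPM in the aged mice, with Aged D below Young C in plain CPM. The fitted log2 fold change was 1.15 ± 0.28 (edgeR adjusted p = 0.0397). It was not called with plain library sizes (0.89, adjusted p = 0.0764), nor without Young A (adjusted p = 0.137), Young B (0.0967), Young C (0.0697), Aged A (0.0775) or Aged C (0.105). Tgfb3, the ligand most typical of these cells, stood at 40.4 to 85.5 CPM in young and 84.1 to 105.5 CPM in aged mice (0.76 ± 0.26, edgeR adjusted p = 0.110).

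In fibroblasts 1 of 10 members rose and none fell by edgeR (6 passed an unadjusted p under 0.05 and DESeq2 called 1, in either direction), where 2.07% of 5513 genes were called higher and 1.11% lower (98 and 100 genes with plain library sizes in place of 114 and 61). Bmp2 was at 20.2, 35.7 and 48.1 CPM in the young mice and at 96.5, 74.8, 228 and 54.9 CPM in Aged A to D. These aged values rest on 56, 13, 18 and 6 UMIs from 121, 41, 15 and 17 cells, and the log2 fold change was 1.64 ± 0.41 (edgeR adjusted p = 0.0443). The call was lost on leaving out Young A (adjusted p = 0.0888), Young B (0.105), Aged A (0.153), Aged B (0.0575), Aged C (0.0968) or Aged D (0.0541). In aged fibroblasts the 3 myoepithelial markers stood at 57.5 to 98.3 CPM against 12.5 to 37.0 in the young, the 5 endothelial ones at 0 to 12.7 against 33.6 to 153 and the 5 HS ones at 25.3 to 45.7 against 91.0 to 126, with none of the 13 at 0 in all mice, and their part in the Bmp2 difference was not tested. The receptors that fibroblasts carry most were at 203 to 373 CPM in young and 137 to 193 CPM in aged mice for Tgfbr2 (-0.65 ± 0.27, edgeR adjusted p = 0.199) and at 131 to 200 and 91.4 to 171 CPM for Tgfbr3 (-0.18 ± 0.28, edgeR adjusted p = 0.787).

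In HS cells none of 6 members tested was called by edgeR or DESeq2, against 3.93% of 8457 genes higher and 2.33% lower, and 1 passed an unadjusted p under 0.05. That was Id1, at 20.1 to 42.6 CPM in young and 10.6 to 27.2 CPM in aged mice (-0.96 ± 0.34, edgeR adjusted p = 0.118). In Mb macrophages 2 members were tested, Tgfb1 and Tgfbr1, and none was called by edgeR or DESeq2 or passed an unadjusted p under 0.05, against 0.931% of 859 genes higher and 0.233% lower. These macrophages numbered 3 to 9 cells in each aged mouse. No member passed the filter in T and B cells.

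**Figure D3:**
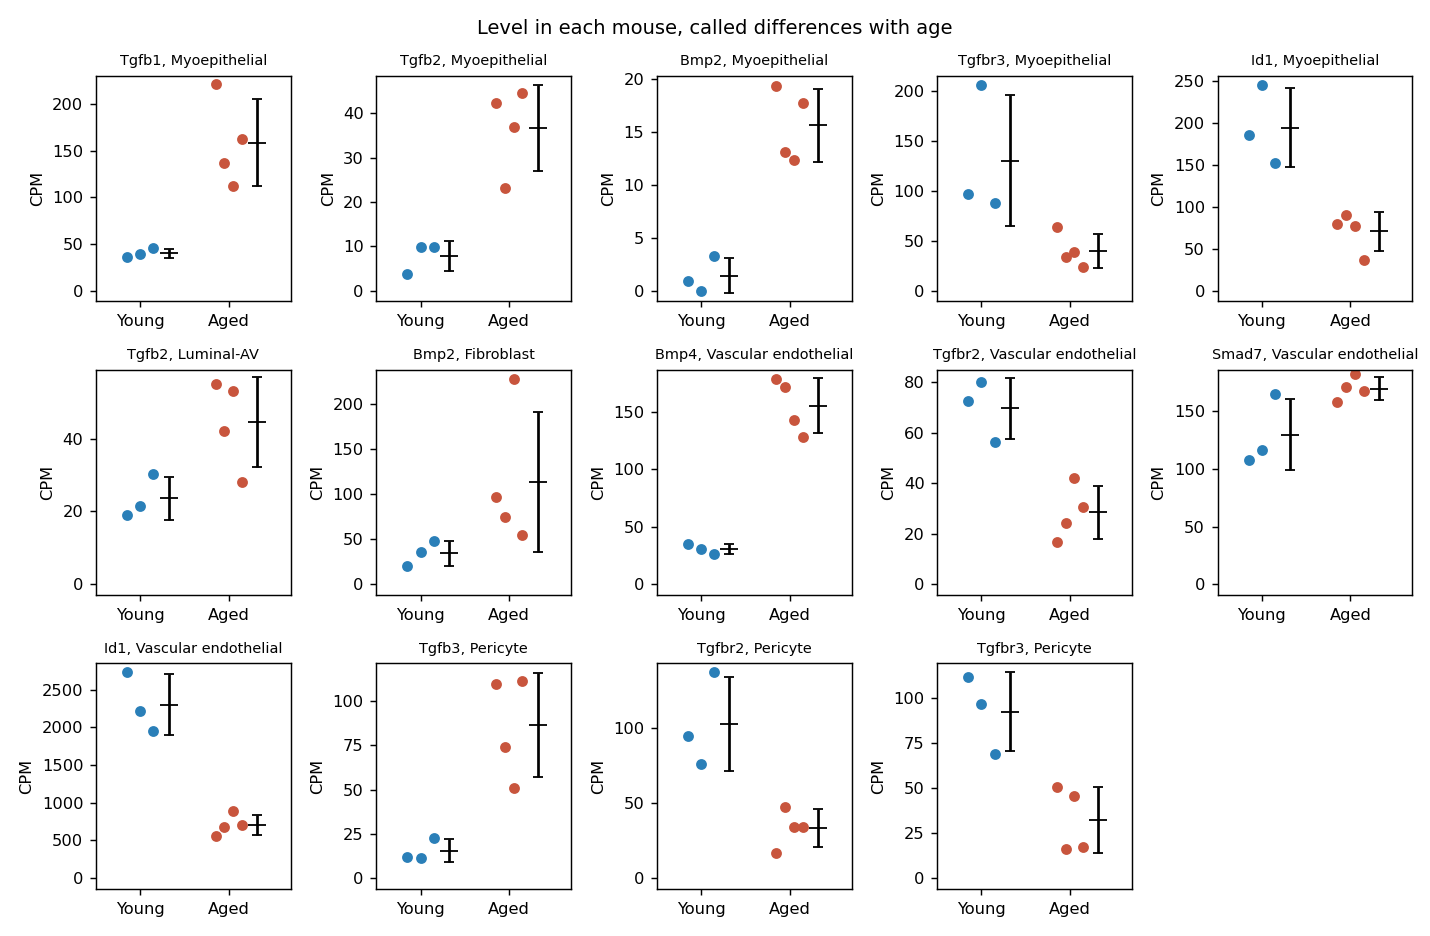
CPM of the 14 called combinations of gene and cell type in each mouse (points; blue young, red aged), with the mean and SD of each group as a bar, from the summed counts without TMM. Points of the ages do not overlap in 12 of the 14 panels, the exceptions being Smad7 in vascular endothelial cells and Tgfb2 in Luminal-AV cells.

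The median log2 fold change of the members tested was 0.57 in myoepithelial cells, 0.33 in HS cells, 0.34 in AV cells and 0.57 in fibroblasts, with a median over all genes tested within 0.02 of 0 in each. In vascular endothelial cells it was -0.04 against -0.05, and in pericytes -0.36 against 0.01.

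Whether the age difference itself differed between types was tested in one edgeR fit over myoepithelial, HS, AV, fibroblast and vascular endothelial cells with the mouse as a term. These types were scaled together by TMM, so the differences need not equal those between the fits per type. For Tgfb1 the fits per type gave 2.11 in myoepithelial cells and 0.90 in fibroblasts. Plain library sizes were not tried in the joint fit. Over 10 pairs of types and 10 members, 13 of 100 differences were called. The Tgfb1 rise of myoepithelial cells exceeded the age difference of each of the other 4 types, by a log2 difference of 1.85 ± 0.31 over HS cells, 2.31 ± 0.33 over AV cells, 1.60 ± 0.38 over fibroblasts and 1.90 ± 0.30 over vascular endothelial cells (edgeR adjusted p from 1.87e-05 to 0.00994). The Tgfb2 rise exceeded the age difference of fibroblasts by 3.11 ± 0.60 in myoepithelial cells and by 1.60 ± 0.43 in AV cells (edgeR adjusted p = 0.00159 and 0.0262). For Bmp4 the age difference of fibroblasts minus that of vascular endothelial cells was -1.74 ± 0.45 (edgeR adjusted p = 0.0103), and for Id1 that of AV cells exceeded that of vascular endothelial cells by 1.61 ± 0.51 (edgeR adjusted p = 0.0371).

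The receptors and Smad7 made up the other calls. The Tgfbr2 difference with age was higher in myoepithelial cells than in fibroblasts and vascular endothelial cells, and higher in HS than in vascular endothelial cells, while those of Tgfbr3 and Smad7 were lower in myoepithelial than in vascular endothelial cells. Over all 10934 genes the share called was 7.23% between myoepithelial and HS cells, 10.5% between myoepithelial and AV cells, 4.52% between myoepithelial cells and fibroblasts and 9.37% between myoepithelial and vascular endothelial cells. It was 2.52% between HS and AV cells, 1.54% between HS cells and fibroblasts, 8.24% between HS and vascular endothelial cells, 4.20% between AV cells and fibroblasts, 10.2% between AV and vascular endothelial cells and 7.18% between fibroblasts and vascular endothelial cells. With each mouse left out in turn, 3 of the 13 calls held every time, those of Tgfb1 in myoepithelial cells over HS, AV and vascular endothelial cells. Without Young B, whose myoepithelial library was the smallest with 40 cells, 6 of the 13 remained. Of these 6, Tgfb1 over fibroblasts was lost without Young C, Tgfb2 in myoepithelial cells over fibroblasts without Young A, and Bmp4 without Young A or without Aged B. The fit without the mouse term kept 8 of the 13.

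Summed over all cells of a mouse, 3 of 10 members rose with age and 2 fell, where 15.9% of 12983 genes were called higher and 16.8% lower (1055 and 3933 genes with plain library sizes in place of 2069 and 2179). In such a sum fewer cells of a type and less RNA per cell cannot be told apart. Tgfb3 was at 16.2, 17.1 and 24.5 CPM in young and at 59.7, 58.5, 80.7 and 58.6 CPM in aged mice (log2 fold change 2.07 ± 0.23, edgeR adjusted p = 0.000994). Tgfb2 was at 11.3 to 17.0 and 25.4 to 42.1 CPM (1.59 ± 0.23, edgeR adjusted p = 0.00219) and Bmp4 at 7.9 to 15.8 and 17.6 to 23.9 CPM (1.11 ± 0.23, edgeR adjusted p = 0.00767). Tgfbr2 fell from 76.5 to 100 CPM in young to 15.8 to 28.2 CPM in aged mice (-1.79 ± 0.21, edgeR adjusted p = 0.00110) and Tgfbr3 from 55.1 to 60.4 CPM to 12.6 to 27.1 CPM (-1.43 ± 0.24, edgeR adjusted p = 0.00340).

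The cell types that supplied the UMIs differed between the ages, and so did the numbers of cells. Fibroblasts numbered 184 to 1034 per young and 15 to 121 per aged mouse, and AV cells 104 to 402 and 811 to 1446. Myoepithelial cells numbered 40 to 187 and 125 to 662, and vascular endothelial cells 145 to 409 and 171 to 285. Within fibroblasts Tgfb2 was at 46.1 ± 8.27 CPM in young and 40.2 ± 19.1 CPM in aged mice. The shares below hold both cell numbers and the level within cells. In young mice 65.7% ± 2.77 of Tgfb2 UMIs came from fibroblasts, and in aged mice 2.4% ± 2.4 did and 79.4% ± 11.2 came from AV cells. For Tgfb3 the share of AV cells was 40.0% ± 9.7 in young and 87.9% ± 4.5 in aged mice. Of Tgfbr2 UMIs, 63.8% ± 12.0 came from fibroblasts in young and 15.7% ± 15.2 in aged mice. Vascular endothelial cells gave 38.5% ± 24.5 of the Bmp4 UMIs in young and 79.8% ± 2.2 in aged mice, and myoepithelial cells gave 1.8% ± 1.2 and 29.2% ± 10.4 of those of Tgfb1.

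**Figure D4:**
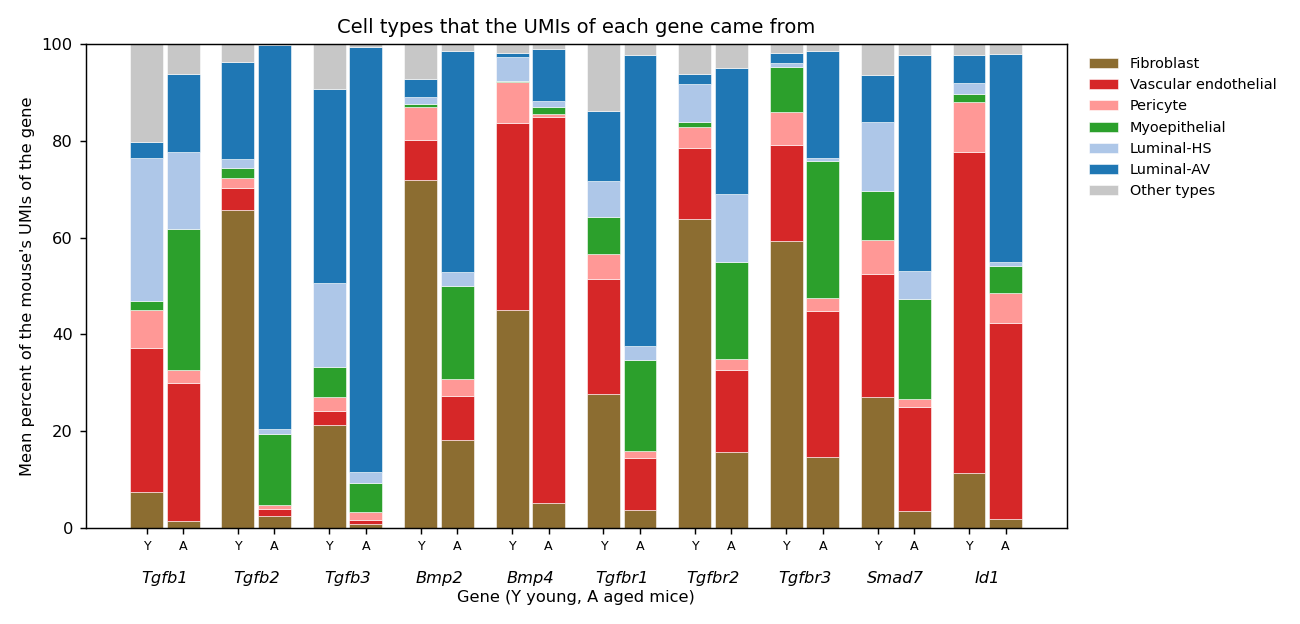
Mean percent of each gene's UMIs in a mouse that came from each cell type, for young (Y) and aged (A) mice; bars stack to 100 percent. For Tgfb2 fibroblasts supply 65.7% in young and Luminal-AV cells 79.4% in aged mice. The numbers of cells of these types also differed between the ages.

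With the 8 tested types given equal weight in each mouse, 3 members differed between the ages at an unadjusted exact permutation p under 0.05. Bmp4 had a mean of 10.4 ± 2.82 CPM in young and 27.3 ± 5.14 CPM in aged mice, Tgfbr2 78.0 ± 9.72 and 48.7 ± 10.3 CPM, and Id1 558 ± 73.3 and 257 ± 63.8 CPM (exact permutation p = 0.0286 each, the smallest that 3 against 4 mice allow). Tgfb3 stood at 19.6 ± 5.28 and 36.4 ± 9.39 CPM and Tgfb2 at 11.8 ± 1.99 and 20.01 ± 4.98 CPM on this measure (exact permutation p = 0.0571 and 0.0857). Tgfbr3 stood at 59.3 ± 11.2 and 32.6 ± 9.21 CPM and Bmp2 at 8.45 ± 4.78 and 24.8 ± 9.31 CPM (exact permutation p = 0.0571 each). Mb macrophages and T and B cells, of 3 to 9 and 4 to 19 cells per aged mouse, weighed as much as the large types. These means are not separate from the calls by type. Vascular endothelial cells entered them with Bmp4 at 30.5 CPM in young and 155 in aged mice and Id1 at 2302 and 707 CPM. In all cells Id1 had ranged from 181 to 742 CPM in young and 115 to 262 CPM in aged mice (-1.05 ± 0.48, edgeR adjusted p = 0.118).

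Of 84 other genes of the pathway, 42 were tested in myoepithelial cells, 7 of them called higher and 6 lower, where 12.8% and 14.8% of all genes tested were. Among 14 feedback genes and inhibitors 2 rose and 3 fell. Fst, the activin inhibitor follistatin, rose from 450 ± 175 to 825 ± 180 CPM (log2 fold change 1.02) and Tgif1, a SMAD corepressor, from 155 ± 33.9 to 282 ± 44.1 CPM (1.006), while the BMP antagonist Sostdc1 fell from 33.0 ± 9.24 to 1.82 ± 2.10 CPM (-3.76) and Fstl1 from 76.8 ± 24.9 to 30.6 ± 5.14 CPM (-1.12). Of 5 signal transducers 2 rose, among them Smad3, which carries the TGF-β signal, from 4.79 ± 4.72 to 35.7 ± 3.06 CPM (2.47). Of 2 ligands 1 rose, Gdf15 (2.34), and 1 fell. Of 9 targets 1 rose and 1 fell, the latter being the BMP target Id3, from 793 ± 106 to 401 ± 148 CPM (-0.88). Of 4 receptors 1 rose, and of 8 latency genes 1 fell. The edgeR adjusted p of the genes named was at most 0.0144.

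In vascular endothelial cells 8 of 41 of these genes rose and none fell by edgeR (15 passed an unadjusted p under 0.05 and DESeq2 called 8, in either direction), where 14.7% and 12% of all genes tested were called higher and lower. Of 10 targets tested 2 rose, among them the TGF-β target Tgfbi, from 4.43 ± 3.42 to 9.45 ± 2.19 CPM (log2 fold change 1.74). Of 12 feedback genes and inhibitors 4 rose, including Tgif1 from 89.6 ± 27.2 to 211 ± 27.2 CPM (1.61), the BMP antagonist Nbl1 from 25.2 ± 13.9 to 75.7 ± 21.1 CPM (2.08) and Fst (2.60). Gdf15 rose (1.03) with TMM and was not called with plain library sizes. Of 5 receptors 1 rose, and none of 4 transducers or 8 latency genes was called. The edgeR adjusted p of the genes named was at most 0.0185.

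In HS cells 5 of 35 rose and 1 fell (3.93% and 2.33% of all genes tested), and in AV cells 2 of 53 rose and 7 fell (2.9% and 3.26%). Fst rose in HS cells from 1.63 ± 0.178 to 18.6 ± 11.2 CPM (log2 fold change 3.67), with the inhibitor Fstl3 (2.35) and the ligand Bmp3 (2.15), and Fst was called higher in 3 of the 8 cell types. Myoepithelial cells carry Fst at 825 CPM in aged mice, and the 3 myoepithelial markers summed to 13.9 to 22.2 CPM in young and 38.0 to 140 CPM in aged HS cells, as they also were higher in aged vascular endothelial cells, with none at 0 and both markers tested called higher in each type. Their part in the Fst differences of HS and vascular endothelial cells, where the aged means were 18.6 and 10.3 CPM, was not tested. Cyr61, a matricellular target gene, rose in HS cells (1.21) and in AV cells (1.47, not called with plain library sizes), and Ctgf rose in AV cells (3.02). Id3 fell in HS cells (-0.99) and in AV cells (-1.47). In AV cells Fstl1 (-3.68, mean 7.68 CPM in young and 0.526 in aged mice), Nbl1 (-1.76, 14.9 and 4.02), and the latency genes Ltbp4 (-2.31, 6.10 and 1.11) and Nrros (-3.59, 3.31 and 0.150) fell, all at low levels. The 4 fibroblast markers summed to 27 to 167 CPM in young and 2 to 5 CPM in aged AV cells, and the 5 HS markers to 193 to 277 and 30.0 to 39.3 CPM, with all 9 called lower and none at 0. The immune marker Ptprc stood at 1.80 to 3.31 and 0.27 to 0.66 CPM, and the 4 macrophage markers summed to 2.3 to 6.2 and 0.3 to 1.0 CPM. Ptprc and the 1 macrophage marker tested were called lower. HS cells of young mice carry Id3 at 598 CPM, and the part of these markers in the lower Id3 and the other differences of AV cells was not tested. The edgeR adjusted p of the genes named was at most 0.0445.

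In pericytes 3 of 23 rose and 1 fell (7.19% and 4.61% of all genes tested). Id3 rose there, from 1491 ± 143 to 2279 ± 284 CPM (log2 fold change 0.77), and was called in 4 cell types, lower in 3 of them. Id2 (1.37) and Snai1 (0.80) rose with TMM only, not with plain library sizes, and Ltbp4 fell (-1.42). In fibroblasts, where 2.07% of all genes tested rose and 1.11% fell, 1 of 42 rose, Lrrc32, which tethers latent TGF-β at the cell surface, from 17.7 ± 5.38 to 67.6 ± 16.6 CPM (2.00), and none fell (13 passed an unadjusted p under 0.05 and DESeq2 called 2, in either direction). The edgeR adjusted p of these genes was at most 0.0491. None of 7 genes in Mb macrophages was called by edgeR, where 2 passed an unadjusted p under 0.05 and DESeq2 called 1, and the 1 gene tested in T and B cells was not called by either tool and did not pass an unadjusted p under 0.05.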

How the data were processed

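The deposited data are a matrix of UMI counts per gene and cell, which the authors made from 10x 3′ v2 libraries (1 per mouse) with Cell Ranger 2.0 on mm10 (per the labels), filtered for cells and left without normalization, and a table of each cell's mouse and cell type. Symbols and cell types were used as deposited. The table's fraction of mitochondrial UMIs and its Seurat score for S and G2M phase, which the authors deposited per cell, were not used in any test. Only the median mitochondrial share of each mouse is described. The members and gene lists were chosen with earlier results of these data known, and the study itself had examined signaling genes in the same libraries, so their directions are not independent evidence.

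For each mouse the counts of a cell type's cells (at least 3) were added up. In 8 types these sums were tested by the quasi-likelihood method of edgeR 4.0.16 (R 4.3.3) after filterByExpr and TMM scaling, and the other types were described only. p-values measure the spread between mice. Single values were compared by exact permutation over the 35 divisions of 7 mice or by sign flips within mice. All tests are two-sided. Named pathway genes were called in at least 2 types or among the 3 largest changes of a type; 1 gene that met this rule is not reported here. For shares, cells were thinned to 2000 UMIs. Scrublet (scanpy 1.11.5, expected rate 0.06) called 73 of 13684 cells doublets (0.533%), which were kept; free RNA was not removed. Intervals and upper limits for 0 cells (3 counts) cover counting error alone. Fits were tested on simulated counts. Alternatives were DESeq2 1.42.0, RLE, other filters, folds and depths, no doublets, no ribosomal or mitochondrial genes, a block of the mouse letters, each mouse left out, plain library sizes and equal weights of types (the last 2 chosen after seeing the data). Python 3.11.15, pandas 2.3.3, scipy 1.17.1 and matplotlib 3.10.9 were used.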

Additional observations from a re-analysis of the deposited data

Results flagged for a closer look

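The age difference itself differed between cell types for 13 combinations in the edgeR fit with a mouse term, given as log2 differences. For Tgfb1 the difference in myoepithelial cells exceeded that in HS cells by 1.85, in AV cells by 2.31, in fibroblasts by 1.60 and in vascular endothelial cells by 1.90. For Tgfb2 that in fibroblasts was exceeded by 3.11 in myoepithelial and by 1.60 in AV cells. For Tgfbr2 the difference in myoepithelial cells was above that in fibroblasts by 1.67 and that in vascular endothelial cells by 1.73, and HS cells were above vascular endothelial cells by 1.30. Myoepithelial minus vascular endothelial cells gave -1.15 for Tgfbr3 and -1.04 for Smad7, AV minus vascular endothelial cells gave 1.61 for Id1, and fibroblasts minus vascular endothelial cells gave -1.74 for Bmp4.

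In 51 groups of 4 aged mice, 1 mouse stood apart from the other 3 in 2 groups, Aged C for Id1 in HS cells (27.2 CPM, the highest) and Aged B for Tgfbr1 in vascular endothelial cells (20.3 CPM, the lowest). Chance flags about 1 in 20 groups.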

How the results depend on the processing

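The 14 calls of members with age became 9, all among the 14, when the study's own fold minimum was asked in every young and aged pair of mice. With counts thinned to equal totals there were 8 calls: of the 14, 7 were kept, 1 was lost and 6 were no longer tested, and Tgfbr1 in vascular endothelial cells was new. With each mouse left out there were 10 to 13 calls, 10 to 12 of them among the 14 and 0 to 3 new. DESeq2 kept 13 of the 14 and lost Tgfbr3 in pericytes. For the share of thinned cells with a UMI, exact permutation p was 0.0286 for Tgfb1 and Id1 in myoepithelial cells. It was also 0.0286 for Bmp4 and Id1 in vascular endothelial cells and Tgfb3 and Tgfbr2 in pericytes. It was 0.0571 for Tgfbr3 in pericytes, and 0.0857 for Tgfb2, Bmp2 and Tgfbr3 in myoepithelial cells. Vascular endothelial Tgfbr2 was at 0.0857 and Smad7 at 0.171, and AV Tgfb2 and fibroblast Bmp2 were at 0.143. No called direction reversed under any alternative run. Of 260 alternative values of the 14 differences, 222 kept the call and 38 did not, most of them for Tgfb2 in AV cells, Bmp2 in fibroblasts and Tgfbr3 in pericytes. The calls of Tgfb1 and Id1 in myoepithelial cells, Bmp4 and Id1 in vascular endothelial cells and Tgfb3 in pericytes were kept in every alternative in which the gene was tested. The 13 differences between cell types became 20 without the filter on low counts, 8 without the mouse term and 6 to 13 with each mouse left out. In all cells the 5 calls became 5 to 8 with each mouse left out. With equal weights of the types, where the test was an unadjusted exact permutation in place of edgeR, 3 members passed, 2 of the 5 (Bmp4 and Tgfbr2) and Id1. Without Young C, Bmp2, Smad7 and Id1 were called as well in all cells. In each alternative run, 0 members led their next cell type after adjustment over the 10 genes by the exact sign-flip test. That result says little about the leading types, since the smallest p this test can give bounds it. Without Aged D, Bmp2, Bmp4, Tgfbr1 and Tgfbr2 were at the smallest p for 6 mice (0.0313), with an adjusted p of 0.0781. With at least 10 cells per mouse, Bmp2, Bmp4 and Tgfbr2 were at the smallest p for 7 mice (0.0156), with an adjusted p of 0.0521.

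Letters in the mouse names pair no animals, and deviations of same-lettered mice correlated between -0.17 and 0.07 within the types; a replicate block on the letters left 11 of 14 calls by cell type and 5 in all cells. Causes were not tested. Depth limits the pericyte, fibroblast and Mb macrophage values of aged mice, of 20 to 46, 15 to 121 and 3 to 9 cells each.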
